A study of Mus musculus with 4 samples.

Results

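The interferon-gamma response spots of Control mouse kidney were 118 of 5890 Control spots (2.00%), out of 11130 spots in the whole study. Of these, 51 of 2528 were in Control section 1 and 67 of 3362 in Control section 2. They were chosen by the summed level of Igtp, Iigp1, Gbp2, Cxcl9 and Cxcl10, genes that interferon-gamma induces, and not by the level of Ifng. In each spot the UMIs of these 5 genes were divided by the UMIs of all non-mitochondrial genes, multiplied by 10000, log-transformed and summed, and the highest 2% of spots of each section were taken. A UMI stands for 1 captured RNA molecule. The measured values of these 5 genes therefore chose the members, and their levels are given as a description with no test. All other genes were counted in the same spots but did not enter the choice.

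The data are Visium spatial counts, in which each spot of a slide captures the RNA of a small patch of tissue that can hold several cells of different types. Kidneys came from 2 Uox_KO mice, in which several exons of Uox were deleted, and 2 Control mice, which were bought as wild type. All were male on a C57BL/6J background, with 1 fresh frozen section of 10 µm each, and no treatment is named. Uox encodes urate oxidase, which breaks down urate, and the knockout serves as a mouse model of high uric acid. Age is not given in the sources used here. Section totals were 53897511 and 57230517 UMIs in Uox_KO and 93524222 and 107962997 UMIs in Control. Uox itself had 0 UMIs in every section, which allows up to 0.0557 and 0.0524 UMIs per 1000000 in Uox_KO and up to 0.0321 and 0.0278 in Control, so its count in kidney does not check the genotype labels. Most results below use only the 2 Control sections. The 2 Control sections shared 2443 spot barcodes, of which 1 was a member in both, and the same set of barcodes is printed on every slide area. The positions of the spots were not used here, so whether members lie beside each other is not described.

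Interferon-gamma is a cytokine made mainly by T and NK cells. It binds a receptor that signals through the kinases Jak1 and Jak2, and among the genes it induces is the transcription factor Irf1. The cells that respond make guanylate-binding proteins and immunity-related GTPases that attack membranes around microbes, chemokines that draw lymphocytes carrying the receptor Cxcr3, and the machinery that presents antigen on MHC molecules. Type I interferons use a partly shared set of target genes.

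Each of the 5 marker genes was rare in a Control section and crowded into the member spots. Igtp, an immunity-related GTPase, had 144 and 168 unscaled CPM (UMIs per 1000000 UMIs of the same spots) in the members of Control sections 1 and 2, against 6.67 and 7.37 in the remaining spots. Iigp1, a GTPase of the same family, had 111 and 124 unscaled CPM in members and 2.79 and 2.69 in remaining spots. Gbp2, a guanylate-binding protein, had 67.5 and 74.3 in members and 2.88 and 3.06 in remaining spots. These 3 GTPase genes were alike in the 2 sections.

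The chemokine genes were more uneven. Cxcl9 had 46.4 and 60.2 unscaled CPM in members and 0.435 and 0.358 in remaining spots. Cxcl10 had 135 and 108 in members and 1.58 and 1.40 in remaining spots. Of the section's UMIs, members held 65.8% and 75.2% for Cxcl9, against 28.1% and 29.2% for Igtp. When members were chosen on a random part of the UMIs and counted in the other part, the ratio of members to remaining spots was 98.6 and 187 for Cxcl9, 70.7 and 74.5 for Cxcl10, 34.3 and 30.8 for Iigp1, 19.7 and 21.4 for Gbp2 and 19.5 and 18.4 for Igtp. These ratios come from UMIs that had not chosen the spots.

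A few spots carried a large share of the signal. The highest spot held 219 marker UMIs in Control section 1 and 222 in Control section 2, out of 50393 and 34183 UMIs of any gene in that spot. The median member held 7 and 6 marker UMIs, and the median remaining spot held 0. The 10 highest spots of each section held 28.1% and 22.8% of all marker UMIs, and all members together held 38.8% and 39.4%. At least 10 marker UMIs were seen in 13 and 21 members and in 0 and 0 remaining spots, and at least 50 in 4 and 2 members. All 5 markers were detected together in 10 members of each section and in 0 and 0 remaining spots.

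The lower edge of the membership was not sharp. The last member scored 0.970 and the first spot left out scored 0.968 in Control section 1, with 1 and 3 marker UMIs. In Control section 2 these scores were 1.232 and 1.226, with 4 marker UMIs each. Median scores of members were 1.39 and 1.68, and the highest were 11.6 and 13.3. UMIs of both a GTPase and a chemokine marker were present in 35 and 45 members, of a GTPase alone in 14 and 22, and of a chemokine alone in 2 and 0. Median depth was 33258 and 29382 UMIs in members and 37442 and 32087 in remaining spots. Of all summed UMIs, 13.1% and 13.5% were mitochondrial in members and 13.0% and 14.0% in remaining spots.

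**Figure D1:**
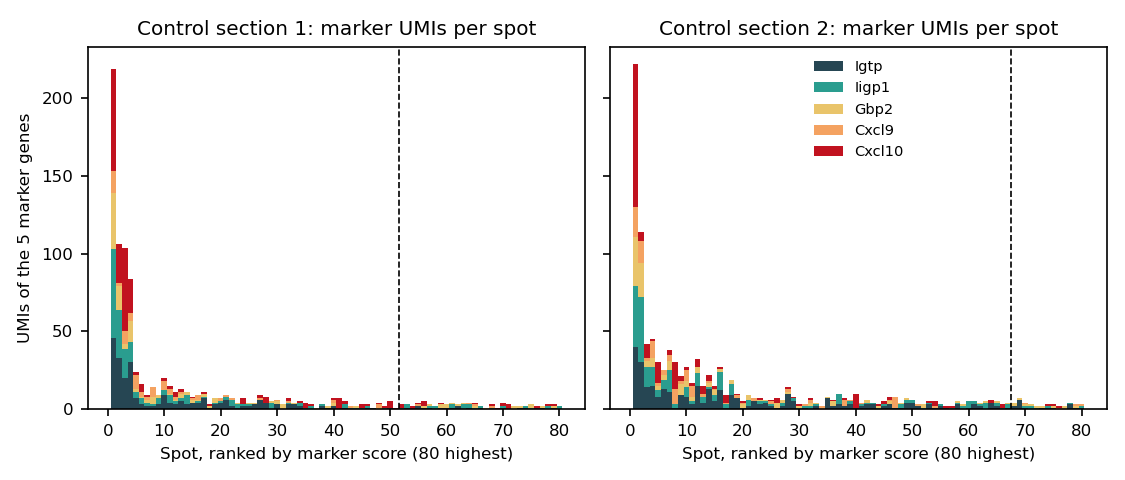
UMIs of the 5 marker genes (vertical axis, stacked by gene) in the 80 spots with the highest score of each Control section, ranked by score (horizontal axis); the dashed line marks the last member. The highest spots hold 219 and 222 marker UMIs, while the median member holds 7 and 6.

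The promoters of interferon genes are known for short elements that factors activated by interferon bind. Promoters of 300 bases, from 250 before to 50 after the start of transcription, were taken from RefSeq (GRCm38.p6) for 12 of 13 genes looked up. The genes looked up were the markers apart from Iigp1, and leading GTPase and signalling genes. Those of Igtp, Irgm2, Gbp2, Cxcl10 and Irf1 are shown because these genes are markers or rose in the members. Capitals mark matches, on either strand, to TTCNNNGAA, the form of a gamma-activated site (GAS), and to 2 copies of GAAA with 2 bases between them, the form of an interferon-stimulated response element (ISRE). Each sequence is read 5′ to 3′ on the strand of its gene.
Igtp, chr11:58199306-58199605, plus strand: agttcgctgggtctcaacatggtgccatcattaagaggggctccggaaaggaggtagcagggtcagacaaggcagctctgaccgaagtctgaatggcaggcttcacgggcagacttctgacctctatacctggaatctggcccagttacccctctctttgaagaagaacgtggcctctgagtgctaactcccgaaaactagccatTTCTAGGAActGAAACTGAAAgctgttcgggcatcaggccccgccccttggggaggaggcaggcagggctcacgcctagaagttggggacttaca
Irgm2, chr11:58214727-58215026, plus strand: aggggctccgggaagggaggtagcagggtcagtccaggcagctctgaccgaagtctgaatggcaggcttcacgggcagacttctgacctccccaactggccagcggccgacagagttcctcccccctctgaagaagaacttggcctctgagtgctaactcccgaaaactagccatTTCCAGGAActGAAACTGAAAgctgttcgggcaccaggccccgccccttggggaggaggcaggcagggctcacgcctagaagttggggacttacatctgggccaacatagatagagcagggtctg
Gbp2, chr3:142620413-142620712, plus strand: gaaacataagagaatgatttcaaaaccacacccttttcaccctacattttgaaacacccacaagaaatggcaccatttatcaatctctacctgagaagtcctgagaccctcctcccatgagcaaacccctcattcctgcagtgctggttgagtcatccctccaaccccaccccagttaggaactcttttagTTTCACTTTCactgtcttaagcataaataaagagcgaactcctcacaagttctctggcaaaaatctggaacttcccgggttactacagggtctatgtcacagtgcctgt
Cxcl10, chr5:92348840-92349139, minus strand: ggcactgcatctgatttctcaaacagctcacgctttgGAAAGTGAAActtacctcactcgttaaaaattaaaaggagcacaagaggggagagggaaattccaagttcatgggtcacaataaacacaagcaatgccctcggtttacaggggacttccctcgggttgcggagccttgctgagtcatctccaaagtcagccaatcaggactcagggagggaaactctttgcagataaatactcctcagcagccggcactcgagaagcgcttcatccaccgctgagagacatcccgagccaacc
Irf1, chr11:53769764-53770063, plus strand: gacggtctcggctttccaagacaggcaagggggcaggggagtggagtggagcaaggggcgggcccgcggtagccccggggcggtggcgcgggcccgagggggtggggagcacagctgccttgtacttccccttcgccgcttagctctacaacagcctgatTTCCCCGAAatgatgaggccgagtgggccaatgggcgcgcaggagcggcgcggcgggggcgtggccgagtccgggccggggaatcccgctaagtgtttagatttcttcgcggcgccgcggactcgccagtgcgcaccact

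Igtp and Irgm2 have both elements close together before the start, Gbp2 and Cxcl10 have an ISRE match and Irf1 has a GAS match. The GAS form was found in 6 of the 14 promoters of these genes, against 8.30% of all 32851 RefSeq promoters of the same length, and the ISRE form in 6 of the 14, against 3.44%. No match of one form overlapped a match of the other in the printed sequences. The windows of Igtp and Irgm2 share long runs of letters, so their matches are not separate cases. Of the other genes looked up, Tgtp1 matched both forms, Irgm1 the ISRE form, and Serpina3g and Irf8 the GAS form, while Cxcl9, Ifi47 and Cd274 matched neither in this window. A match is a description of letters and says nothing on binding in these kidneys.

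The question of the main comparison was which other genes differed between members and the remaining spots of the same section. Counts were summed over the members and over the remaining spots of each section, giving 4 sums with 1659452 and 1911788 UMIs in members. The 2 sections were compared as pairs with edgeR's quasi-likelihood F test, and values are CPM, counts per 1000000 after TMM scaling. Of 11616 genes tested, 308 rose in members (2.65%) and 366 fell (3.15%) at a Benjamini-Hochberg adjusted p below 0.05. Among the genes called, the rises were larger than the falls: 153 genes rose by more than 2-fold (1.32%) and 4 fell by more than 2-fold (0.0344%). With scaling by total UMIs in place of TMM, 439 genes rose and 71 fell, so the split into rises and falls depends on the scaling. The median log2 fold change was 0.997 among genes that rose and -0.23 among genes that fell. With 2 pairs there is 1 residual degree of freedom, and edgeR gave no weight to a gene's own spread, only to spread shared between genes. Small differences and genes that differ between the mice can therefore pass. Standard errors are the size of the log2 value divided by the square root of F. In this comparison they rest on the shared spread and do not measure how far the 2 mice differed. Those of the interaction, given further below, also lean on spread shared between genes. DESeq2, which estimates the spread differently, called 98 of the 308 rises and 10 of the 366 falls, and its counts are given below as counts by DESeq2. A gene was tested where its mean over the 4 sums reached 2 CPM. A gene below 2 CPM in the remaining spots could pass this only by being higher in members. The counts of rises over all genes include such genes, among them Gbp6 and Tgtp1. Low genes also have few UMIs in the small member sums, where a fall is hard to call. The excess of large rises over large falls is therefore not read as a trait of the members. Where a list count below holds such a rise, it names the gene or counts the genes that reached 2 CPM in the remaining spots. For genes that reached it there, the filter does not set the direction.

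The remaining immunity-related and guanylate-binding GTPases gave large rises. Of the 16 genes found in the files, 10 were tested and rose, also by DESeq2. Of these, 5 passed the filter only through the members, among them Gbp6 and Tgtp1, and the other 5 reached 2 CPM in the remaining spots. Irgm1, which controls the other GTPases of its family, had 172 and 163 CPM in the members of Control sections 1 and 2 and 24.7 and 23.1 CPM in remaining spots (log2 fold change 2.81, standard error 0.09, n = 2 pairs, adjusted p 1.99e-199). Gbp6 had 57.2 and 50.9 CPM in members and 1.66 and 1.20 CPM in remaining spots (log2 fold change 5.25, standard error 0.22, n = 2 pairs). For the 5 genes that reached 2 CPM in the remaining spots both member sums were above both remaining sums, which was so for 19.4% of all genes tested.

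Irgm2 had 56.6 and 57.5 CPM in members and 8.30 and 7.23 CPM in remaining spots. Tgtp1, another GTPase of the immunity-related family, had 23.1 and 32.1 CPM in members and 0.701 and 1.06 CPM in remaining spots. Ifi47 had 37.6 and 35.1 CPM in members and 2.99 and 2.71 CPM in remaining spots. Gbp7 and Gbp3 had log2 fold changes of 2.95 and 2.93. The lowest of the 10 log2 fold changes was 2.75. Reads of near-identical copies such as Tgtp1 and Tgtp2 may be shared, and their separate levels are uncertain. The other 6 genes were under the minimum of 2 mean CPM. Gvin1 had 0 and 0 UMIs in members and 2 and 0 UMIs in remaining spots, and the other 5 had from 2 to 7 UMIs in the members of a section.

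Genes of the interferon-gamma pathway itself split into targets, which rose, and receptor parts and kinases, most of which did not pass the test. Of 14 genes tested, 9 rose and 0 fell, with 8 of the rises also called by DESeq2. Of the 9 rises, 5 were genes that passed the filter only through the members (Cd274, Ciita, Nlrc5, Serpina3g and Socs1), and of the other 9 genes tested 4 rose. Irf1 had 58.4 and 47.8 CPM in members and 6.10 and 6.33 CPM in remaining spots (log2 fold change 3.09, standard error 0.17, n = 2 pairs, adjusted p 3.59e-71). Its level was higher in the members of Control section 1 than of Control section 2, and both were above the remaining spots.

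Serpina3g, a protease inhibitor, had 16.2 and 11.7 CPM in members and 0.554 and 0.623 CPM in remaining spots. Cd274, which encodes the T cell checkpoint ligand PD-L1, had 14.4 and 6.62 CPM in members and 1.04 and 1.01 CPM in remaining spots. Irf8, a factor of myeloid cells that interferon-gamma also induces, had 26.6 and 21.9 CPM in members and 9.06 and 8.25 CPM in remaining spots. The log2 fold changes were 4.54, 3.32 and 1.48. Ciita, the master regulator of MHC class II, Nlrc5, its counterpart for class I, and Socs1, a brake on the pathway, also rose, by 2.71, 2.51 and 2.59 on the log2 scale. The receptor chain gene Ifngr1 rose by 0.45 in edgeR (adjusted p 0.00918) and had an adjusted p of 0.616 in DESeq2. Ifngr2, Jak1, Jak2, Stat3 and Ptpn2 had log2 fold changes between -0.05 and 0.39 and did not pass.

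The ligand could hardly be measured. Ifng had 0 and 1 UMIs in members and 7 and 2 UMIs in remaining spots, and 0 UMIs in the members of Control section 1 allows up to 1.81 unscaled CPM. At this depth no difference in Ifng was detectable. Cd3e, a chain of the T cell receptor complex, had 2 and 2 UMIs in members and 25 and 28 in remaining spots and was too low to test.

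Antigen presentation genes rose for both classes of MHC. Of 19 class I and peptide loading genes tested, 16 rose and 0 fell (12 by DESeq2, median log2 fold change 1.02). Tap1, a subunit of the transporter that carries peptides to class I molecules, had 43.3 and 52.4 CPM in members and 6.92 and 8.17 CPM in remaining spots (log2 fold change 2.67, standard error 0.16, n = 2 pairs). The inducible proteasome subunits Psmb9 and Psmb8 had log2 fold changes of 2.63 and 2.16. These processing genes changed more than the class I molecules themselves. B2m, their light chain, had 639.7 and 555.8 CPM in members and 377 and 310.1 CPM in remaining spots (log2 fold change 0.80, standard error 0.05, n = 2 pairs), and the heavy chains H2-K1 and H2-D1 had log2 fold changes of 0.80 and 0.76. Reads of related H2 genes can be shared.

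All 8 class II genes tested rose, all 8 also by DESeq2, of which 7 reached 2 CPM in the remaining spots. Cd74, the invariant chain, had 361 and 297 CPM in members and 133 and 122 CPM in remaining spots (log2 fold change 1.36, standard error 0.06, n = 2 pairs). H2-Ab1 had 254 and 226 CPM in members and 92.6 and 86.1 CPM in remaining spots, and H2-DMa, which helps load peptides, had 24.3 and 19.3 CPM in members and 5.83 and 5.88 CPM in remaining spots. H2-Aa and H2-Eb1 had log2 fold changes of 1.29 and 1.28. Both member sums were above both remaining sums for Cd74, H2-Ab1, H2-DMa, H2-Aa and H2-Eb1, all of which reached 2 CPM in the remaining spots. This was so for 19.4% of all genes tested.

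On the type I interferon list, 20 of 32 genes tested rose and 0 fell, with 9 rises called by DESeq2. Of the 28 that reached 2 CPM in the remaining spots, 16 rose. Bst2, which tethers viruses to the cell surface, had 41.0 and 52.9 CPM in members and 16.3 and 18.3 CPM in remaining spots (log2 fold change 1.44, standard error 0.14, n = 2 pairs). Ifi27l2a, Ifit3, Parp14 and Irf7 had log2 fold changes of 1.34, 2.00, 1.82 and 1.69. Isg15, a ubiquitin-like protein, had 6.93 and 7.13 CPM in members and 2.95 and 3.27 CPM in remaining spots, with an adjusted p of 0.0236 in edgeR and 0.658 in DESeq2. Rsad2, an antiviral enzyme, had 20.2 and 29.5 CPM in members and 19.9 and 19.6 CPM in remaining spots and did not pass (adjusted p 0.234). Ifnb1 had 0 UMIs in all 4 sums, which allows up to 1.81 and 1.57 unscaled CPM in the members. Gbp and immunity-related GTPase genes are known targets of both interferon types, and the lists do not separate the 2 kinds of signal.

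**Figure D2:**
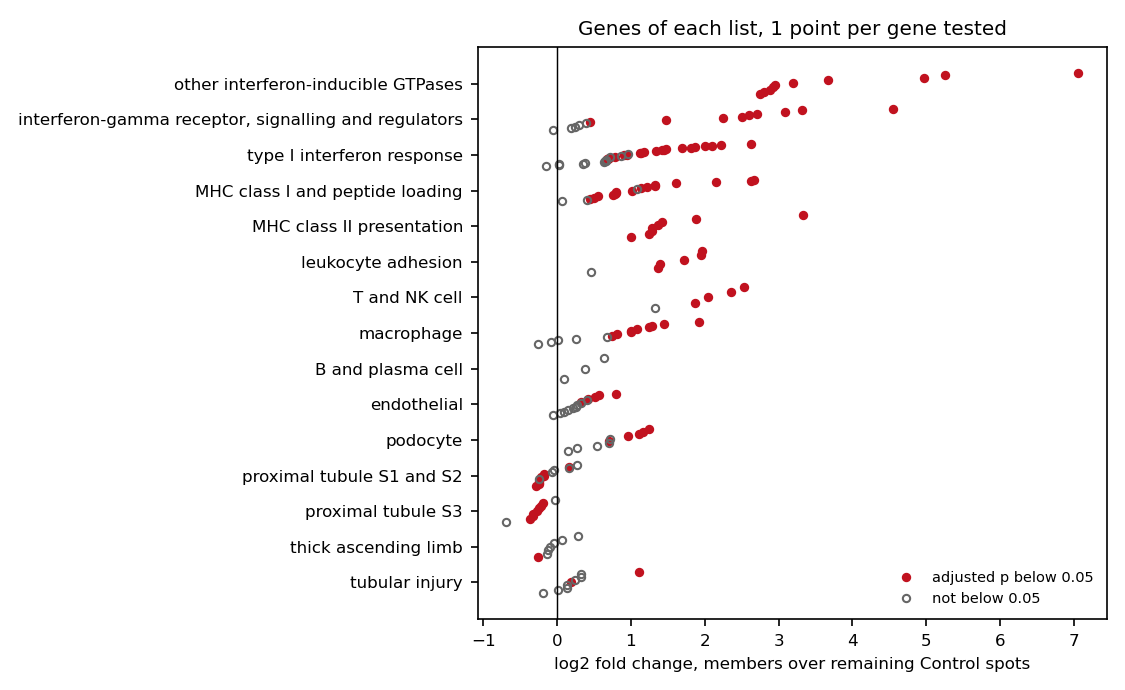
log2 fold change of members over remaining Control spots (horizontal axis) for every tested gene of 15 lists (rows), filled where edgeR's adjusted p was below 0.05. All 5 T and NK cell genes and 5 of the 10 GTPase genes were tested only through their level in members. So were 5 of 14 interferon-gamma signalling genes and 4 of 32 type I interferon genes. The same holds for 2 of 6 leukocyte adhesion genes, 1 of 8 class II genes and 1 of 14 macrophage genes. The 10 other GTPase genes lie between 2.75 and 7.06, and the proximal tubule lists lie around or below 0.

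Beyond the 2 chemokine markers, Ccl5, which attracts T cells, had 37.6 and 12.7 CPM in members and 2.68 and 2.23 CPM in remaining spots (log2 fold change 3.28, standard error 0.25, n = 2 pairs). The log2 ratio of Ccl5 was 3.81 in Control section 1 and 2.51 in Control section 2. Ccl2, the monocyte chemokine, had 10 and 14 UMIs in members and 10 and 12 UMIs in all remaining spots, a log2 fold change of 5.79, and it passed the filter only through the members. Of the 7 genes tested on the list of other chemokines and Cxcr3, these 2 and Cxcl16, with a log2 fold change of 0.51, rose and 0 fell. DESeq2 called 2 of them. Of 6 leukocyte adhesion genes, 5 rose (3 by DESeq2), and of the 4 that reached 2 CPM in the remaining spots 3 rose. Icam1, which leukocytes grip on the vessel wall, had 38.1 and 31.0 CPM in members and 12.9 and 13.1 CPM in remaining spots, and Vcam1 had a log2 fold change of 1.72. A row with the symbol Ccl19, a chemokine of lymphoid tissue that the files list under more than 1 gene ID, had 36.4 and 33.1 CPM in members and 6.68 and 6.11 CPM in remaining spots.

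T and NK cell and macrophage genes were higher in the members as sums, and B and plasma cell genes differed in direction between the sections. Neutrophil genes had too few UMIs in members to read a direction. In a spot, more cells of a type and more RNA per cell cannot be told apart. The 21 T and NK cell genes together had 38.0 and 37.7 unscaled CPM in members and 9.11 and 8.73 in remaining spots. They were seen in 22 of 51 and 33 of 67 members, and 6 and 4 of the 21 genes were at 0 in members, among them the cytotoxic gene Gzmb in both sections. All 5 that were tested passed the filter only through the members, so no count is read from them. The T cell receptor chain Trbc2 had 4.04 and 7.13 CPM in members and 0.927 and 1.26 CPM in remaining spots. With members chosen on one part of the UMIs and counted in the other, Trbc2 had a log2 fold change of 1.54 and an adjusted p of 0.380.

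Of 14 macrophage genes tested, 9 rose and 0 fell, 4 of them by DESeq2. Lyz2, the lysozyme of myeloid cells, had 52.6 and 35.6 CPM in members and 11.6 and 11.4 CPM in remaining spots, and Laptm5 and C1qa had log2 fold changes of 1.44 and 1.003. The 18 macrophage genes summed to 706 and 600.0 unscaled CPM in members and 495 and 486 in remaining spots, with 1 gene at 0 in each section. Of 3 dendritic cell genes 2 rose, Zbtb46 and Bst2, which is also on the type I interferon list (1 by DESeq2). Of 3 B and plasma cell genes 0 passed, and the 9 genes of that list summed to 21.7 and 39.8 unscaled CPM in members and 30.7 and 16.0 in remaining spots. The 6 neutrophil genes had 2 and 3 UMIs in members, with 4 of 6 at 0 in each section, or 1.21 and 1.57 unscaled CPM, against 2.12 and 1.87 in remaining spots. Of 10 complement genes 4 rose and 0 fell (2 by DESeq2), with C3 and C4b at log2 fold changes of 1.78 and 2.21. Cd55, C2 and Cfb had -0.75, -0.13 and -0.12 and did not pass.

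**Figure D3:**
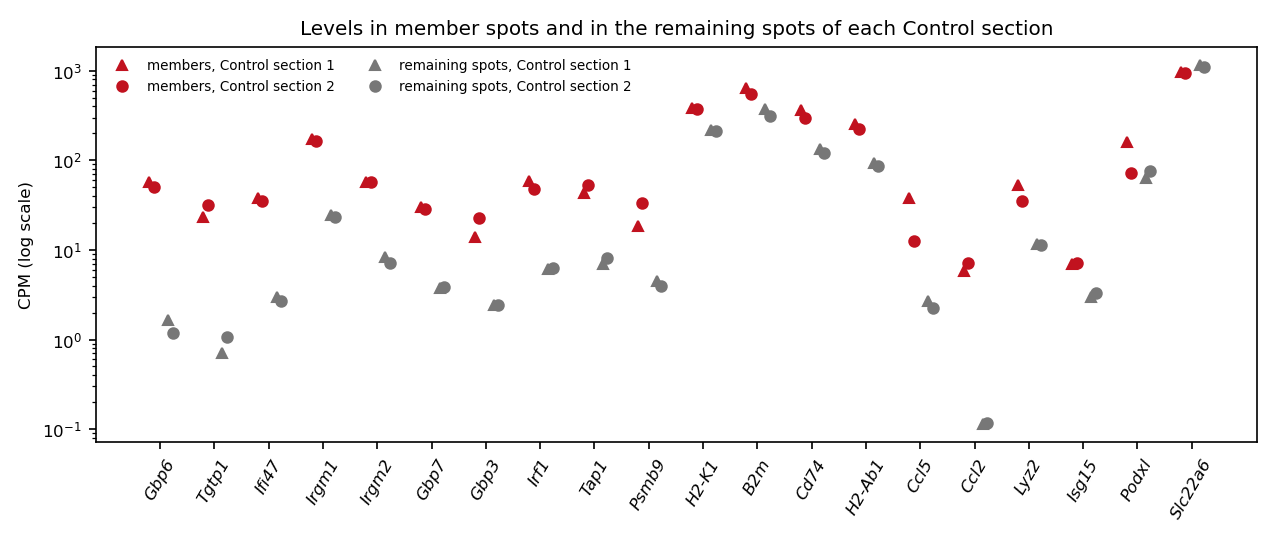
CPM on a log axis for 20 genes in the members (red) and the remaining spots (grey) of Control section 1 (triangles) and Control section 2 (circles). Both member sums are above both remaining sums for the interferon, MHC, chemokine and Lyz2 points, as for 19.4% of all genes tested. Of these, Gbp6, Tgtp1 and Ccl2 passed the filter only through the members. Podxl is higher only in the members of Control section 1 (161 CPM) and Slc22a6 is slightly lower.

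Under TMM scaling the proximal tubule, the segment that takes up most of the filtrate, was slightly lower in members. Of 13 genes of its S1 and S2 parts 7 fell and 1 rose, and of 9 genes of S3 7 fell. The medians were -0.18 and -0.28, against -0.03 over all genes, and DESeq2 called 1 of these falls. The unscaled sums in members were 0.957 and 0.945 times those of the remaining spots for S1 and S2. For S3 they were 0.887 and 0.939 times. Slc22a6, an organic anion transporter, had 970.2 and 947 CPM in members and 1162 and 1115 CPM in remaining spots (log2 fold change -0.25, standard error 0.04, n = 2 pairs). Slc34a1, the phosphate transporter, had a log2 fold change of -0.17, and -0.073 with an adjusted p of 0.277 when scaled by total UMIs. Slc7a13, an amino acid transporter of S3, had -0.32, which turned to 0.090 when members were chosen after thinning every spot to 5000 non-mitochondrial UMIs. The last thinned Control member had the score of 1 marker UMI, which 218 and 340 spots reached for 50 and 67 places. Ties at that score were settled by depth, so thinned Control members were partly chosen by depth.

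Of 10 podocyte genes 5 rose, with 0 by DESeq2. Podxl, for the podocyte surface protein podocalyxin, had 161 and 72.8 CPM in members and 63.5 and 76.5 CPM in remaining spots, and the log2 ratio was 1.34 in Control section 1 and -0.072 in Control section 2. Ren1, for renin, had 288 and 87.5 CPM in members and 124 and 75.4 CPM in remaining spots. Both differences rest on Control section 1. Of 14 endothelial genes 5 rose (0 by DESeq2), with Cldn5, a tight junction gene, at a log2 fold change of 0.79. Of 7 principal cell genes 4 rose (1 by DESeq2) and of 8 intercalated cell genes 3 (1 by DESeq2), all by less than 1 on the log2 scale. Of 7 fibroblast and matrix genes 5 rose (2 by DESeq2), with Dcn, the proteoglycan decorin, at 35.8 and 26.5 CPM in members and 18.9 and 15.1 CPM in remaining spots.

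The 14 tubular injury genes summed to 1334 and 1248 unscaled CPM in members and 1004 and 1165 in remaining spots, and Havcr1, Lcn2 and Krt20 were at 0 in the members of Control section 1 and Krt20 and Sox9 in those of Control section 2. Havcr1, for the injury marker KIM-1, had 0 and 1 UMIs in members and 26 and 29 UMIs in remaining spots. Lcn2, another injury marker, had 0 and 1 UMIs in members and 31 and 30 UMIs in remaining spots, and 0 UMIs allows up to 1.81 unscaled CPM. Of 9 tubular injury genes tested 2 rose (1 by DESeq2): Vim, for the intermediate filament vimentin that leukocytes and stroma also carry, at 46.2 and 35.6 CPM in members and 17.3 and 20.3 CPM in remaining spots, and Spp1 by 0.18 on the log2 scale. The 7 urothelium genes had 0 and 1 UMIs in members. Of 5 adipocyte genes 3 rose (1 by DESeq2), and of the 4 that reached 2 CPM in the remaining spots 2 rose. Cfd, for adipsin, had 13.3 and 27.0 CPM in members and 1.03 and 8.24 CPM in remaining spots. The log2 ratio of Cfd was 3.69 in Control section 1 and 1.71 in Control section 2. It was -3.45 with members chosen on thinned spots, where depth settled ties.

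The largest falls among well-measured genes were small. Aldh3b1, an aldehyde dehydrogenase, had 9.25 and 6.11 CPM in members and 12.6 and 13.8 CPM in remaining spots (log2 fold change -0.81, standard error 0.26, n = 2 pairs, adjusted p 0.0323). Akap11, an anchor of protein kinase A, had 12.7 and 13.7 CPM in members and 23.3 and 21.5 CPM in remaining spots. Nxpe3, Tgm1, Jkamp, Fnip1, Faah, Rdh16, Gmps and Babam2 completed the 10, with log2 fold changes between -0.61 and -0.50. DESeq2 called 0 of these 10 genes. Aldh3b1 had an adjusted p of 0.111 when scaled by total UMIs. Of 10 mitochondrial and nuclear RNA genes 8 fell under TMM scaling, and mt-Nd4 had a log2 fold change of -0.15. Scaled by total UMIs, mt-Nd4 had -0.053 (adjusted p 0.488 in edgeR), and the unscaled sum of the 10 genes was 1.003 and 0.962 times that of the remaining spots.

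How the response was spread over the score was described by bands of spots within each section, from spots ranked below the top 20% up to the top 0.5% (12 and 16 spots). The score itself orders the bands, so no test is given. The GTPase genes other than the markers summed to 1335 and 1118 unscaled CPM in the top 0.5% and to 45.5 and 41.8 in spots below the top 20%. In order from 2 to 5%, over 1 to 2% and 0.5 to 1%, to the top 0.5%, their sums were 66.2, 132, 225 and 1335 in Control section 1 and 96.3, 192, 271 and 1118 in Control section 2. The step to the top 0.5% was the steepest in both sections.

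Other interferon genes were also highest in the top 0.5% of both sections, though some bands between were out of order. Irgm1 had 484 and 377 unscaled CPM in the top 0.5% and 23.3 and 21.5 below the top 20%. Irf1 had 174 and 108 in the top 0.5% and 5.40 and 5.52 below the top 20%. Class II genes summed to 1941 and 1260 in the top 0.5% and to 354 and 330 below the top 20%. T and NK cell genes summed to 86.9 and 48.7 in the top 0.5% and to 8.22 and 7.90 below the top 20%, the highest of the 7 bands in both sections; their part in the interferon genes was not tested. The podocyte genes rose with the score up to the band of 2 to 5% and then differed between the sections. Their sums were 150 and 175 below the top 20%, 303 and 280 in 10 to 20%, 304 and 331 in 5 to 10%, and 416 and 397 in 2 to 5%. They were 518 and 211 in 1 to 2%, 313 and 282 in 0.5 to 1%, and 456 and 174 in the top 0.5%.

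**Figure D4:**
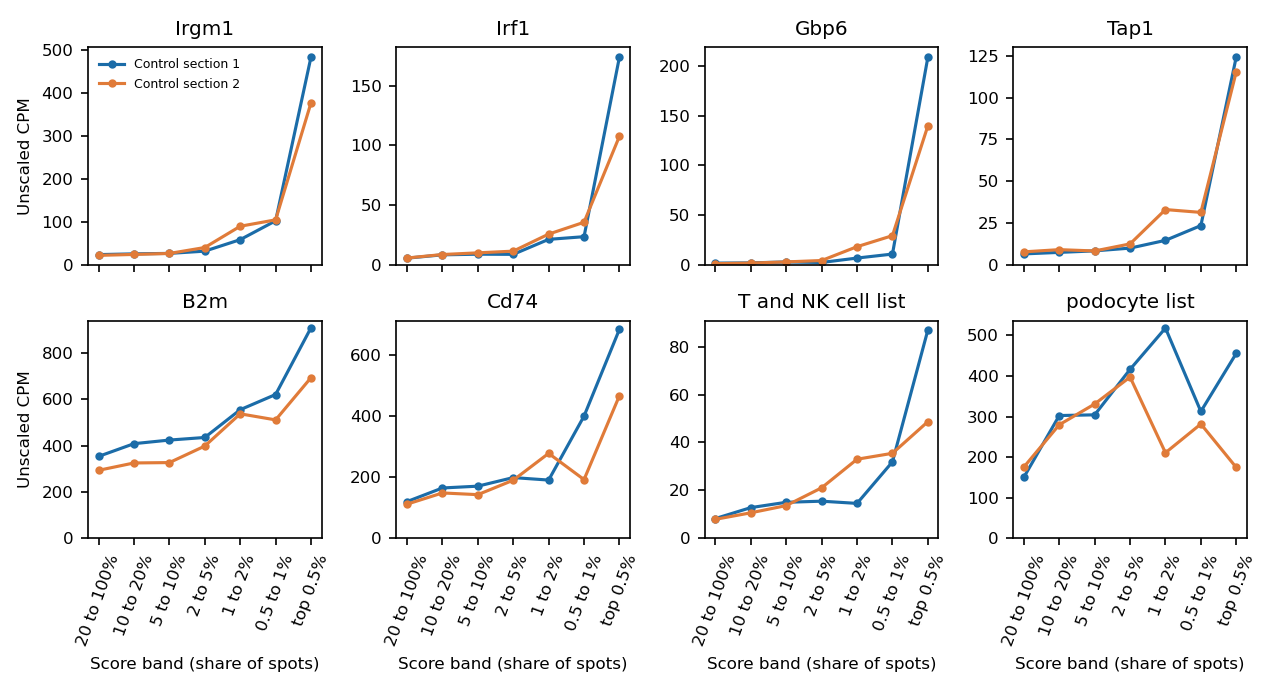
Unscaled CPM (vertical axes, from 0) in 7 bands of spots ranked by marker score, from spots below the top 20% on the left to the top 0.5% on the right, in each Control section. Irgm1, Irf1, Gbp6 and Tap1 climb most steeply in the top 0.5%, and the podocyte list does not.

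Among the members of a section, levels of the markers moved together. Over 51 members of Control section 1 and 67 of Control section 2, the correlation of Igtp with Iigp1 was 0.704 and 0.588, and that of Cxcl9 with Cxcl10 was 0.499 and 0.526. Irf1, which did not choose the spots, correlated with Iigp1 at 0.720 and 0.340. These are descriptions across spots of 1 library, which share depth and the choice on the markers.

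The same rule applied to the Uox_KO sections gave 53 and 52 spots, and served to ask whether the contrast of members with remaining spots was the same in both genotypes. At least the lower Control threshold score was reached by 19.3% and 18.8% of Uox_KO spots, against 2.02% and 2.77% of Control spots. The spot that set this score held 1 marker UMI among 7219 UMIs, and 1 UMI scores higher in a shallower spot. Median depth was 16674 and 19599.5 UMIs per spot in Uox_KO and 37386 and 32038.5 in Control. These shares therefore do not compare the genotypes at equal depth. When each spot was thinned to 5000 non-mitochondrial UMIs the shares were 27.5% and 28.3% in Uox_KO and 8.65% and 10.1% in Control, but that threshold is the level of 1 marker UMI and no change is read from it. The last member scored 3.13 and 3.26 in Uox_KO, against 0.970 and 1.232 in Control, so the same 2% of spots is a stricter class there.

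The interaction of member status with genotype was tested over 8 sums. Of 12405 genes, 51 had a larger ratio of members to remaining spots in Uox_KO (0.411%) and 166 a smaller one (1.34%). On the type I interferon list, 9 of 37 genes had a larger ratio in Uox_KO and 2 a smaller one. Isg15 had 94.6 and 112.5 CPM in members and 9.90 and 10.3 CPM in remaining spots of Uox_KO, against 7.49 and 7.70 CPM in members and 3.39 and 3.78 CPM in remaining spots of Control (interaction 2.27 on the log2 scale, standard error 0.29, n = 2 sections each, adjusted p 9.24e-05). Rsad2 had 79.1 and 116 CPM in members and 20.3 and 24.0 CPM in remaining spots of Uox_KO, against 21.8 and 31.9 CPM in members and 22.9 and 22.6 CPM in remaining spots of Control. For both genes every member sum of Uox_KO was above every member sum of Control, but the Uox_KO members are the stricter class. The share of all genes with this separation is not given here, so nothing further is read from it.

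Of 14 other GTPase genes tested, 0 passed the test with a larger ratio in Uox_KO and 1 with a smaller one, and the median interaction was -0.44. Gbp6 had 70.2 and 49.7 CPM in members and 3.89 and 5.14 CPM in remaining spots of Uox_KO, against 61.8 and 55.0 CPM in members and 1.91 and 1.38 CPM in remaining spots of Control (interaction -1.41, standard error 0.30, n = 2 sections each). Of 15 interferon-gamma signalling genes 0 passed with a larger and 2 with a smaller ratio, Irf1 and Serpina3g, and the median was 0.096. Irf8 had an interaction of 0.57, which did not pass (adjusted p 0.170 in edgeR). Irf1 had 87.2 and 80.2 CPM in members and 21.3 and 19.96 CPM in remaining spots of Uox_KO, against 63.0 and 51.7 CPM in members and 7.004 and 7.31 CPM in remaining spots of Control. For both genes each remaining sum of Uox_KO was above each remaining sum of Control. The member sums of Uox_KO were also above those of Control for Irf1, while for Gbp6 the member sums of the genotypes overlapped. The share of all genes with such separations is not given here, so they only describe these genes. In the DESeq2 fit of the interaction, 9 genes had a larger and 221 a smaller ratio.

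**Figure D5:**
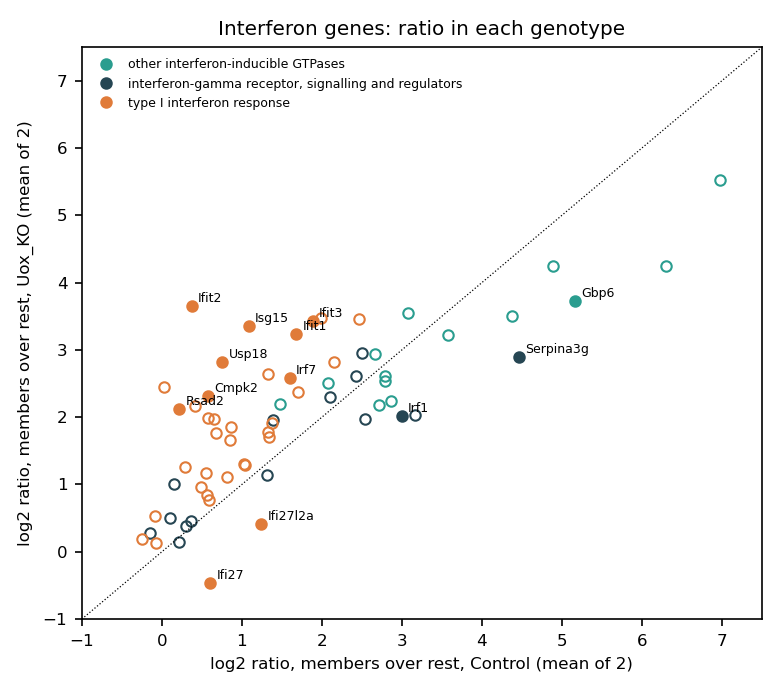
Mean log2 ratio of members over remaining spots in Uox_KO (vertical axis) and in Control (horizontal axis) for genes of 3 interferon lists with a UMI in every sum, filled and named where the interaction passed an adjusted p of 0.05 in edgeR. Isg15 and Rsad2 lie above the dotted line of equal ratios, and Gbp6, Irf1 and Serpina3g below it.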

How the data were processed

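The authors deposited unnormalized UMI counts for each spot; the submitters' processing notes name Space Ranger 1.3.1 and the build mm10. How UMIs of similar genes were assigned is not given in the sources used here. Genes are named by the symbols in the files. All 32285 gene IDs and all deposited spots were kept. Members were scored and counts summed per section in Python 3.11.15. Sums were scaled with TMM, kept at a mean of 2 CPM or more and compared in R 4.3.3 with edgeR 4.0.16 (quasi-likelihood F test) using section as a block, since members and remaining spots share a section, and Benjamini-Hochberg adjustment at 0.05. Deviations of the paired sums correlated at 0.213 over 11616 genes. The markers were left out. DESeq2 1.42.0 was an alternative. Sections are 1 mouse each, and spots are not replicates.

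Named genes were the 12 largest rises and 10 largest falls at a mean of at least 10 CPM with the same direction in both sections, up to 5 genes with the smallest p from each of the gene lists, the 6 largest interactions each way, and Ifng, Irf1 and Cd3e. Further list members, Gvin1, Havcr1, Lcn2 and the interactions of Gbp6, Irf1 and Serpina3g were named after their values were seen. Predicted genes were not named, and some results are not reported here. The members and lists were chosen with earlier results of these data known. On simulated sums of the Control comparison, 74.5% of 200 genes changed 2-fold were recovered and 3.87% of calls were false. The simulated counts used the spread that edgeR had fitted and the same change in both sections. They hold no difference between mice in the change, so the 3.87% does not measure false calls in the real data. Limits for 0 counts are 3 counts of the total, and intervals at 95% and such limits cover counting error only.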

Additional observations from a re-analysis of the deposited data

Results flagged for a closer look

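Of the 51 larger and 166 smaller ratios of members to remaining spots that edgeR's test of the interaction called, the 6 largest each way at a mean of at least 10 CPM are given here, with n = 2 sections each and values on the log2 scale. The ratio was larger in Uox_KO for Isg15 by 2.27 (3.35 in Uox_KO, 1.09 in Control), Usp18, a brake on interferon signalling, by 2.05 (2.82 in Uox_KO, 0.76 in Control), and Rsad2 by 1.87 (2.12 in Uox_KO, 0.21 in Control). It was also larger for Cmpk2, a neighbour of Rsad2 in antiviral responses, by 1.71 (2.31 in Uox_KO, 0.58 in Control), and Ifit3 by 1.51 (3.42 in Uox_KO, 1.88 in Control). Il33, an alarm cytokine, differed by 1.87, with ratios of 1.04 in Uox_KO and -0.89 in Control.

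The 6 with a smaller ratio in Uox_KO are genes of fat cells. The interaction was -7.85 for Adig, -6.62 for Retn, -6.43 for Cidea, -5.91 for Cox8b, -5.87 for Cidec and -5.76 for Plin1. With members chosen on thinned spots the sign turned for Adig (3.75), Retn (5.86), Cox8b (0.79) and Plin1 (4.66), and none of the 6 kept its call. Thinned Control members were partly chosen by depth, through ties at 1 marker UMI. Retn had 7.39 and 18.3 CPM in members and 78.2 and 155 CPM in remaining spots of Uox_KO, against 8.11 and 6.05 CPM in members and 0.739 and 0.573 CPM in remaining spots of Control. Adig had 1 and 3 UMIs in Uox_KO members and 0 and 16 UMIs in Control members, and Cidea had 6 and 10 UMIs in Uox_KO members and 0 and 32 UMIs in Control members. Without Control section 2 the interaction was 0.096 for Adig and -0.020 for Cidea. Cox8b and Plin1 each had 1 UMI in the members of Control section 1, and without Control section 2 their adjusted p was 0.344 and 0.391 in edgeR. Retn and Cidec kept their calls without Control section 2. The part of fat tissue in these values was not tested.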

How the results depend on the processing

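Over all genes, the Control comparison gave 308 rises and 366 falls. These counts were 161 and 17 with no replicate block, 98 and 10 with DESeq2, 153 and 173 with members chosen on thinned spots, 120 and 4 with a score of the 3 GTPase genes, 168 and 97 against the remaining spots most like the members, and 813 and 1287 for the top 5% of spots. Total UMI scaling left 71 falls beside 439 rises, the top 1% of spots left 204 falls, and choosing members on a random part of the UMIs left 182 rises. With 1 section left out there is no residual degree of freedom and no count.

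The interaction gave 51 larger and 166 smaller ratios. These were 5 and 6 with no replicate block, 82 and 275 with filterByExpr, 90 and 299 with no filter, 30 and 99 for the top 1%, 146 and 500 for the top 5%, 285 and 662 on thinned spots, 5 and 9 with the 3 GTPase genes, 126 and 401 with the 2 chemokine genes, and 17 and 72 against the most similar remaining spots. Larger ratios numbered 9 with DESeq2, 95 with total UMI scaling and 26 with members chosen on a part of the UMIs. A robust prior, chosen after seeing the data, gave 41 and 138, and 308 and 366 in the Control comparison. Leaving out 1 section gave 27 to 266 larger and 95 to 734 smaller ratios: 266 and 734 without Uox_KO section 1, 95 and 492 without Uox_KO section 2, 34 and 95 without Control section 1, 27 and 97 without Control section 2. DESeq2 gave no adjusted p for the 12 named interactions.

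Some log2 values changed sign. On thinned spots they were -0.099 for Ehd3, 0.090 for Slc7a13, 0.034 for Atp11a, -3.45 for Cfd and -0.45 for Fabp4. For the interaction they were 3.75 for Adig, 5.86 for Retn, 0.79 for Cox8b and 4.66 for Plin1. Thinned Control members were partly chosen by depth, because spots tied at 1 marker UMI. Klk1 had -0.27 for the top 1%, -0.090 with members chosen on a part of the UMIs and -0.055 against the most similar spots, and from -0.049 to 0.34 with 1 section left out. Hsd11b2 had -0.023 against the most similar spots. With 1 section left out, Podxl ranged from -0.072 (without Control section 1) to 1.34 and Col1a1 from -0.13 (without Control section 2) to 1.49. The interaction of Adig ranged from -8.59 to 0.096 (without Control section 2), and it was 0.21 for Cidea with the 3 GTPase genes. The cause was not tested. Of the named values, 61 lost their call with DESeq2 and 60 with no replicate block.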
